A study of Homo sapiens with 9 samples.

Results

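The distal part of the long arm of chromosome 22, bands q12 to q13, was described here through the γH2AX regions called in it. A region belonged to this block when it lay on chromosome 22 and its midpoint fell between 26 and 50.3 Mb in the hg19 build. The proximal border leaves out the amplified BCR segment of K562 cells, and the distal border leaves out the end of the chromosome. The 8 γH2AX region lists held 234983 regions, of which 1707 lay in the block. By library there were 636 and 531 in KO PMA, 185 and 184 in KO mock, 53 and 101 in WT PMA, and 9 and 8 in WT mock. Position alone chose the regions inside the block. The block itself was chosen with earlier results of these data known, so its differences between groups are not free of that choice.

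γH2AX is histone H2AX phosphorylated on a serine near its C terminus by the damage kinases ATM, ATR and DNA-PK. The mark spreads from a DNA break or a stalled replication fork into the chromatin around it, where it holds repair proteins. FANCL is the ubiquitin ligase subunit of the Fanconi anaemia core complex, which attaches ubiquitin to FANCD2 and FANCI when forks meet interstrand crosslinks. Cells without this pathway are sensitive to crosslinking agents and to aldehydes, and patients who lack it lose blood stem cells.

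The block is gene-rich. In the order of the RefSeq annotation of GRCh38.p14, its proximal part carries MN1, CHEK2 (a checkpoint kinase downstream of ATM), XBP1, EWSR1, NF2, LIF and OSM. HMOX1 (haem oxygenase), MCM5 (a subunit of the replicative helicase), the APOL genes, MYH9 (non-muscle myosin of platelets), CSF2RB, IL2RB and RAC2 follow. Further along lie the 7 APOBEC3 cytidine deaminase genes, CBX7, PDGFB, ATF4, EP300 (a histone acetyltransferase) and XRCC6 (the Ku70 subunit that binds DNA ends). The distal part carries TSPO, PARVB, SMC1B, GTSE1 and CELSR1. All 68 genes listed for the block were found on chromosome 22 in that annotation. No hg19 annotation was used, so no gene was placed in a window below and no region was assigned to a gene.

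The cells were K562, an established human myelogenous leukaemia line with an erythroid and megakaryocytic potential. Each library in the KO groups came from FANCL knockout cells and each in the WT groups from wild-type cells, and both genotypes were grown in the same medium. PMA, a phorbol ester that activates protein kinase C and drives K562 cells towards the megakaryocytic fate, was given at 5 nM, and both PMA and mock treatment lasted 72 h. The groups were KO PMA, KO mock, WT PMA and WT mock with 2 libraries each, and 1 input library came from WT mock cells. The labels do not say whether the knockout cells were 1 clone, nor whether replicates came from separate cultures. The spread between libraries behind each p-value may therefore be technical. The region lists measure neither FANCL nor expressed markers, so genotype and cell line rest on the labels. Lysates were made from whole cultures, so more cells with the mark at a site and more mark per cell cannot be told apart.

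Depth per library ran from 15.6 to 27.2 M (mega) tags, with the WT libraries deeper in the mean. Every library, KO included, was called against the single WT mock input of 18.6 M tags, so a copy number that differs between KO and WT cells and a difference in γH2AX cannot be told apart. The share of tags inside called regions, which the file headers give as the approximate efficiency of the immunoprecipitation, was 7.96 and 6.69% in KO PMA, 3.42 and 3.67% in KO mock, 4.69 and 4.24% in WT PMA and 1.55 and 1.39% in WT mock. This share moved with the groups, and its part in the results below was not tested. The WT PMA replicates stood apart in the block: replicate 2 held 56.2 kb of called length there and replicate 1 held 28.3 kb, although replicate 1 was the deeper library.

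In these libraries γH2AX regions covered far more of the block in knockout than in wild-type cells, and more after PMA than after mock treatment. The covered length, the base pairs inside called regions, was 489 and 370 kb in KO PMA. It was 110 and 109 kb in KO mock, 28.3 and 56.2 kb in WT PMA, against 4.63 and 4.40 kb in WT mock. The 4 groups did not overlap, and every KO library held more than every WT library, including KO mock against WT PMA. Even in the KO PMA libraries, 2.01 and 1.52% of the 24.3 Mb lay inside regions, against 0.0190 and 0.0181% in WT mock.

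**Figure D1:**
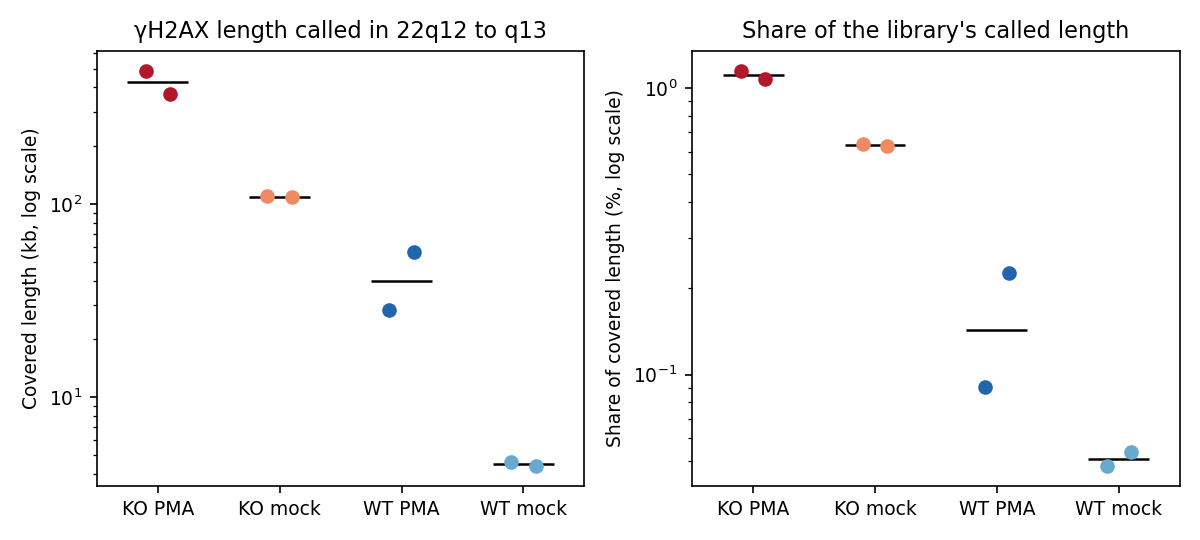
Covered length in the block (left, kb, log scale) and its share of the covered length of the whole library (right, %, log scale) for each library, with the geometric mean of each group as a line. The KO PMA libraries sit at 489 and 370 kb and the WT mock libraries at 4.63 and 4.40 kb, and the groups keep the same order in the share.

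The genotype difference was present under both treatments. Under PMA the knockout libraries held 10.7 times the covered length of the wild-type libraries (log2 3.42), and under mock they held 24.2 times as much (log2 4.59). With the treatments pooled the ratio of KO to WT was 16.1 (log2 4.01, exact permutation test within treatments, two-sided p = 0.0556). PMA libraries held 3.90-fold more than mock libraries in KO (log2 1.96), 8.83-fold more in WT (log2 3.14) and 5.87-fold more across both genotypes (log2 2.55, exact permutation p = 0.0556). The smallest p that these 36 labellings allow is 0.0556, and it is 0.333 for each comparison of 2 libraries with 2. No whole-block test could therefore pass 0.05. The comparison of KO PMA with WT PMA ranged from 2.92 to 3.91 on the log2 scale when 1 library was left out, with both ends set by the WT PMA replicates. That of WT PMA with WT mock ranged from 2.65 to 3.64 in the same way.

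The block also took a larger part of everything that was called. Its share of a library's covered length was 1.15 and 1.07% in KO PMA, 0.637 and 0.627% in KO mock, 0.0902 and 0.227% in WT PMA, and 0.0481 and 0.0538% in WT mock. KO exceeded WT by 7.77-fold under PMA (log2 2.96) and by 12.4-fold under mock (log2 3.64), or 9.82-fold pooled (log2 3.30, exact permutation p = 0.0556). On the log2 scale the difference in share under PMA was 2.29 without WT PMA replicate 1 and 3.62 without WT PMA replicate 2. PMA libraries exceeded mock libraries in this share by 1.76-fold in KO (log2 0.81) and by 2.81-fold in WT (log2 1.49). The WT value was 2.16 on the log2 scale without WT PMA replicate 1 and 0.83 without WT PMA replicate 2. The PMA difference in share depended on the depth of each list. With only the best-scoring 11959 regions of each library, the number in the shortest list, the share in WT PMA against WT mock turned to −0.99 and the covered length to −0.69 on the log2 scale, while KO against WT kept its sign, at 3.98 under PMA and 2.73 under mock for the share.

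The rest of chromosome 22 was compared in the same way. The block held 33.0 and 29.1% of the covered length of chromosome 22 in KO PMA and 11.8 and 11.0% in KO mock. In WT PMA it held 7.04 and 11.3%, and in WT mock 2.68 and 2.45%. Relative to the remainder of the chromosome, which includes the amplified BCR segment, the covered length of the block in KO was 4.57 times that in WT under PMA (log2 2.19) and 4.88 times under mock (log2 2.29). Relative to chromosome 20, the differences were 2.74 under PMA and 3.67 under mock on the log2 scale. Both kinds of ratio were added after the data were seen, so neither is an independent comparison. At the proximal border, the window just inside (26 to 27 Mb) held 14.4 and 10.5 kb in KO PMA and that just outside (25 to 26 Mb) held 2.0 and 1.0 kb. At the distal border the last Mb inside held 1.63 and 1.0 kb in KO PMA, 9.12 and 9.21 kb in KO mock, 3.03 and 5.44 kb in WT PMA, against 0.5 and 0 kb in WT mock. The Mb just outside it held 97.0 and 68.1 kb in KO PMA, 26.5 and 46.0 kb in KO mock, 5.78 and 6.58 kb in WT PMA, against 18.6 and 25.9 kb in WT mock.

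Within the block, the marked sequence was unevenly placed, and the KO PMA libraries concentrated it in a few windows of 1 Mb. The window from 38 to 39 Mb held 128 and 91.7 kb in KO PMA, 18.4 and 11.8 kb in KO mock, 1.0 and 3.19 kb in WT PMA, against 0.5 and 0 kb in WT mock. The window from 39 to 40 Mb held 85.3 and 62.7 kb in KO PMA, 9.61 and 10.3 kb in KO mock, 1.0 and 0.5 kb in WT PMA, against 0 and 0.5 kb in WT mock. That from 41 to 42 Mb held 74.9 and 58.2 kb in KO PMA, 7.97 and 10.5 kb in KO mock, 0 and 2.0 kb in WT PMA, against 1.63 and 1.0 kb in WT mock. In each of these windows both KO PMA libraries lay above both KO mock libraries and these above all 4 WT libraries. The windows were named for their large changes, so this order follows in part from that choice. Over whole libraries the covered length was 42.5 and 34.5 Mb in KO PMA and 17.2 and 17.3 Mb in KO mock. It was 31.3 and 24.8 Mb in WT PMA and 9.63 and 8.18 Mb in WT mock. The windows from 38 to 40 Mb alone made up 42.6% ± 1.21 of the block's covered length in KO PMA and 23.0% ± 3.61 in KO mock, against 6.82% ± 0.355 in WT PMA and 11.1% ± 0.387 in WT mock (SD, n = 2 each). By mean covered length among the 2149 windows of the genome with any call, the window from 38 to 39 Mb ranked 86th in KO PMA, 293rd in KO mock, 1351st in WT PMA and 1297th in WT mock.

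**Figure D2:**
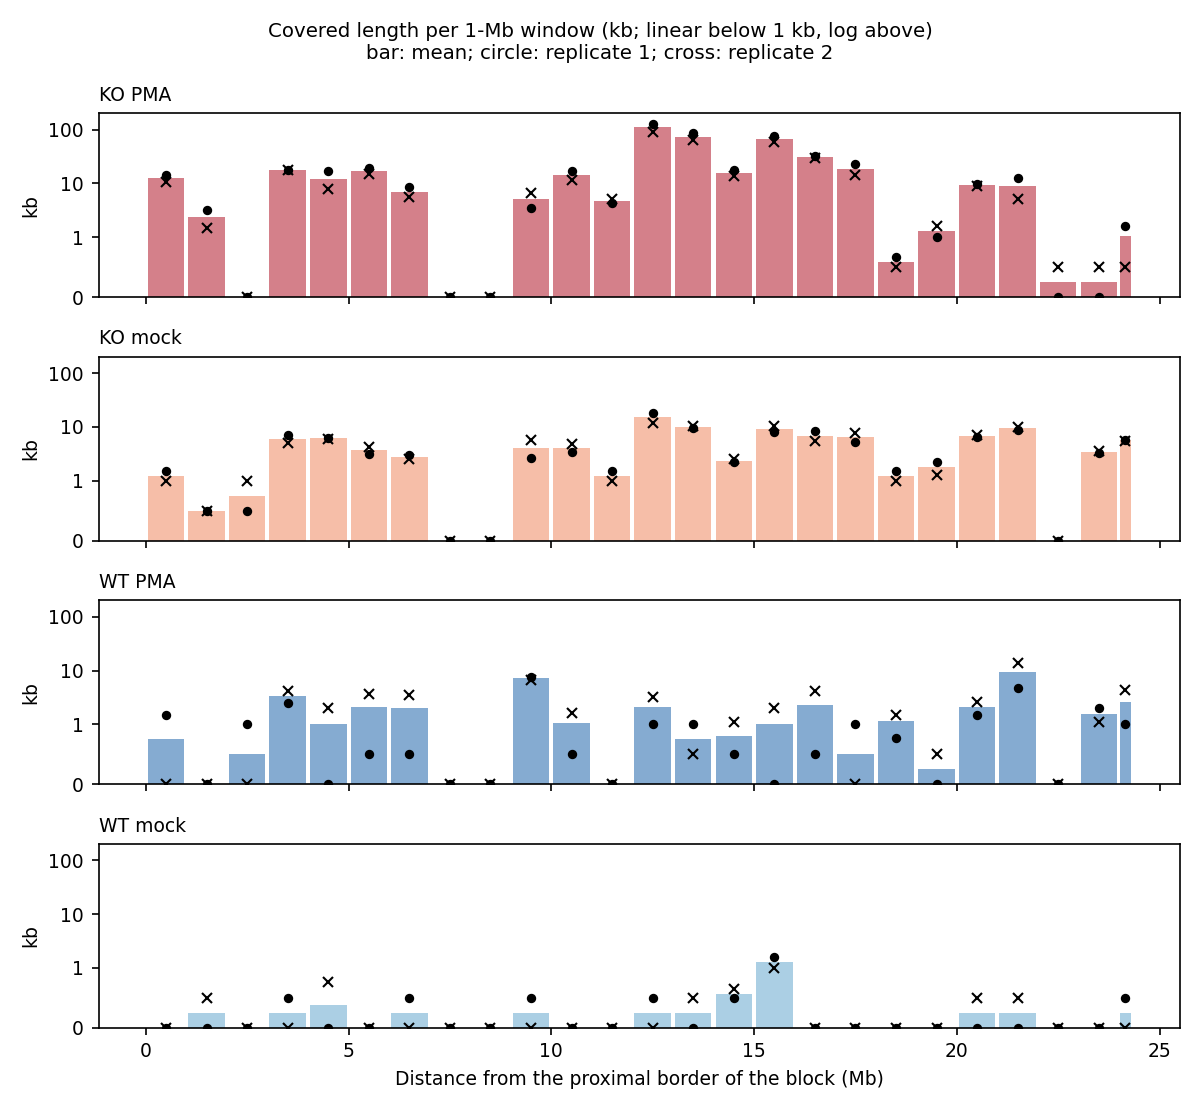
Covered length per window (kb, linear below 1 kb and log above) against the distance from the proximal border of the block (Mb), with 1 panel per group, the mean as a bar and each replicate as a symbol. The KO PMA panel peaks at 128 and 91.7 kb in the window that starts 12 Mb from the border, the KO mock panel has its highest bar in the same window, and the WT PMA panel is highest near 9 and 21 Mb.

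Other stretches behaved differently, and they were picked after their values were seen, so they carry no test. From 38 to 44 Mb KO PMA held 315 ± 63.2 kb, which was 73.3% ± 0.221 of its length in the block. The KO mock libraries had 51.8 and 48.3 kb there (45.9% ± 1.98), the WT PMA libraries 4.0 and 11.0 kb (16.8% ± 3.78) and the WT mock libraries 2.63 and 2.14 kb (52.7% ± 5.76). In the proximal stretch from 26 to 38 Mb the KO PMA libraries had 104 and 81.4 kb, the KO mock libraries 29.6 and 31.5 kb, the WT PMA libraries 14.2 and 21.5 kb and the WT mock libraries 1.5 and 1.26 kb. In the distal stretch from 44 to 50.3 Mb the mean was 21.5 ± 5.38 kb for KO PMA and 28.4 ± 0.357 kb for KO mock, against 16.9 ± 9.64 kb for WT PMA and 0.75 ± 0.354 kb for WT mock (SD, n = 2 each). Distally the KO PMA libraries thus lay below the KO mock libraries, at 25.3 and 17.7 kb against 28.2 and 28.7 kb, and one WT PMA library, at 23.7 kb, fell between the KO PMA libraries.

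Not every window carried the mark. The 2 windows from 33 to 35 Mb were listed at 0 in all 8 libraries, and the window from 48 to 49 Mb held a single region of 0.5 kb, in KO PMA replicate 2. The remaining 22 of 25 windows were covered in at least 2 libraries and entered the test, which ran over 1936 windows of the genome, 1.14% of them in the block. Windows with any call numbered 22 in KO PMA, 22 in KO mock, 20 in WT PMA and 12 in WT mock. Of 243 bins of 100 kb, 145 held a region or part of one in some library, with 104 and 100 in KO PMA, 82 and 87 in KO mock, 33 and 55 in WT PMA, and 9 and 8 in WT mock.

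After PMA, most of the tested windows held more called length in knockout than in wild-type cells. In limma on log2(covered bp + 1000), KO exceeded WT in 15 of the 22 windows and lay below it in 1, at an adjusted p under 0.05. Over the genome, 16.2% of windows were higher and 38.8% lower in that comparison. This contrast in direction depended on scaling: after each library was centred on its own median window, 40.8% of all windows were higher and 13.1% lower, while the block had 16 higher and none lower. The median difference was 2.33 over the tested windows of the block and −0.71 over all tested windows, and 3.57 and 0.54 after centring. The window from 39 to 40 Mb differed by 5.42 (SE 0.33, adjusted p = 0.000324) and ranked 7th of all 1936. The windows from 41 to 42 Mb (5.27, SE 0.54, adjusted p = 0.0011) and from 38 to 39 Mb (5.24, SE 0.46, adjusted p = 0.000695) ranked 8th and 10th. All 3 calls held in every alternative that was run.

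The next largest change lay from 43 to 44 Mb, where KO PMA held 22.7 and 14.3 kb and WT PMA 1.0 and 0 kb (3.75, SE 0.45, adjusted p = 0.00193). The single lower window was that from 49 to 50 Mb, with 0 and 0.5 kb in KO PMA against 2.03 and 1.13 kb in WT PMA (−1.05, SE 0.30, adjusted p = 0.0281). These are 0 or 1 region against a few, and the value turned to 0.20 after each library was centred on its own median window. It lost the call in 7 further alternatives. From 35 to 36 Mb and from 47 to 48 Mb the groups overlapped: KO PMA held 3.44 and 6.75 kb in the first and 12.4 and 5.23 kb in the second, against 7.71 and 6.62 kb and 4.76 and 13.6 kb in WT PMA.

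Under mock treatment the knockout cells held more called length in nearly the whole block. Of the 22 tested windows, 18 were higher in KO and none lower, where 29.3% of all windows were higher and 6.25% lower. The 4 windows that did not pass, those starting at 26, 27, 28 and 32 Mb, also had positive differences. The median was 2.19 in the block and 0.34 over all windows. The window from 38 to 39 Mb differed by 3.69 (SE 0.46, adjusted p = 0.00216) and that from 39 to 40 Mb by 3.16 (SE 0.33, adjusted p = 0.00119). From 47 to 48 Mb KO mock held 8.91 and 9.97 kb and WT mock 0 and 0.5 kb (3.09, SE 0.58, adjusted p = 0.00901). From 42 to 43 Mb KO mock held 8.31 and 5.51 kb, and both WT mock libraries were listed at 0 (2.96, SE 0.59, adjusted p = 0.0111).

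The number of calls rested on having both libraries of a group. It was 10 or 11 without KO mock replicate 1 or 2, and 9 or 10 without WT mock replicate 1 or 2. It was 6 when regions under 6-fold over input were left out. After centring 14 windows were higher and none lower, where 21.8% of all windows were higher and 15.2% lower. Of the 22 windows, 13 were higher in KO both under PMA and under mock, 59.1% against 14.0% of all tested windows. These 2 comparisons share no library, but they are not independent. They come from 1 fit with 1 spread per window, and all libraries were called against the same input.

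**Figure D3:**
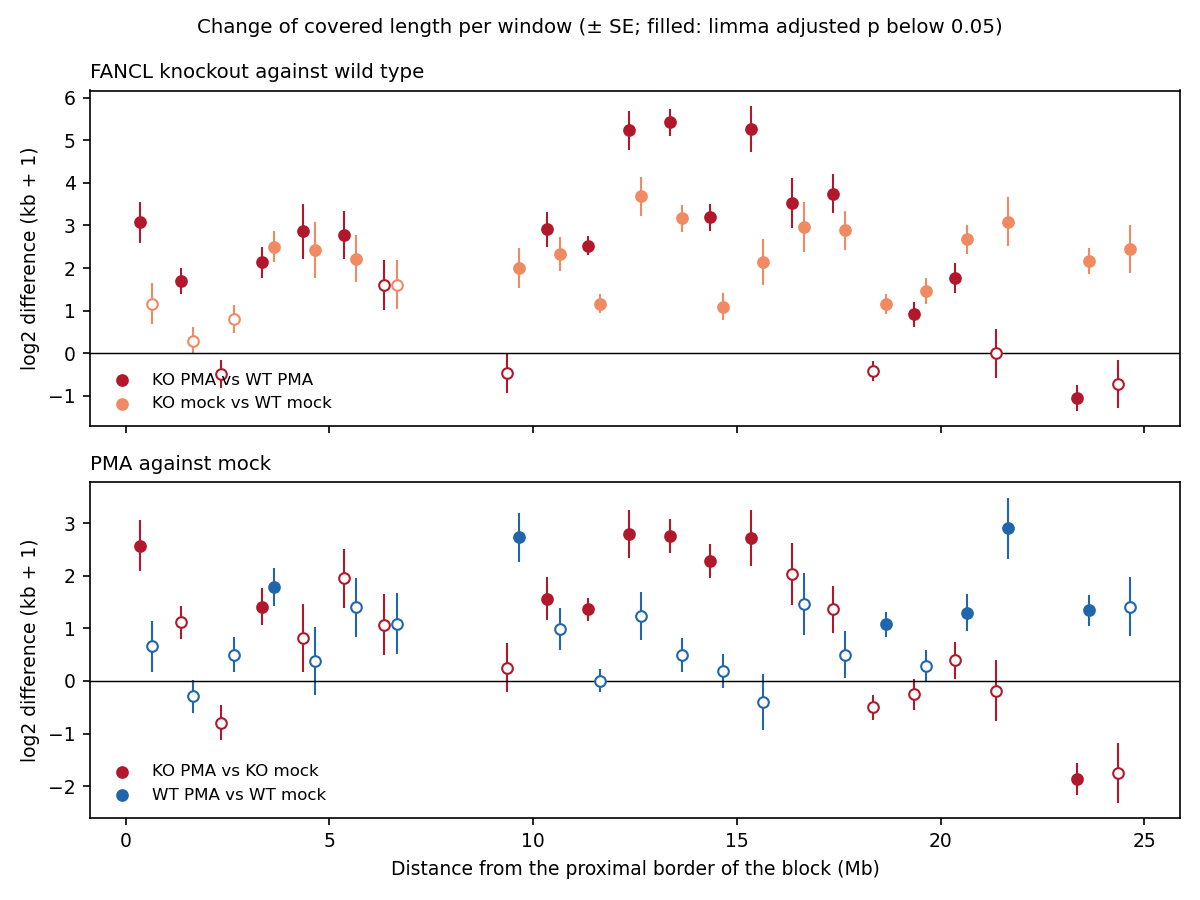
Difference in covered length per tested window, on the log2(kb + 1) scale with its standard error, against the distance from the proximal border of the block (Mb). The upper panel shows knockout against wild type under PMA and under mock, the lower panel PMA against mock in each genotype, and filled symbols passed limma at an adjusted p under 0.05. The values for KO PMA against WT PMA reach 5.42 between 12 and 16 Mb and lie at or below 0 in 3 of the 4 last tested windows.

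The windows called for PMA against mock differed between the 2 genotypes, and the account for wild type depended on scaling. In KO cells 8 windows were higher after PMA and 1 was lower, where 17.7% of all windows were higher and 5.11% lower. The largest differences lay from 38 to 39 Mb (2.79, SE 0.46, adjusted p = 0.0117), from 39 to 40 Mb (2.76, SE 0.33, adjusted p = 0.00518) and from 41 to 42 Mb (2.72, SE 0.54, adjusted p = 0.0194), with the values given above. From 26 to 27 Mb KO PMA held 14.4 and 10.5 kb against 1.5 and 1.0 kb in KO mock (2.57, SE 0.48, adjusted p = 0.0171). From 49 to 50 Mb KO PMA held 0 and 0.5 kb against 3.31 and 3.65 kb in KO mock, and it fell (−1.87, SE 0.30, adjusted p = 0.0107). The 9 calls became 3 or 5 without KO PMA replicate 1 or 2 and 4 or 1 without KO mock replicate 1 or 2. After centring each library, 8 were higher and 3 lower, where 17.5% of all windows were higher and 7.85% lower.

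In WT cells 6 windows were higher after PMA and none lower, a smaller share than over the genome, where 65.3% of windows were higher and 1.86% lower. The median difference was 1.03 in the block and 1.51 over all windows. From 47 to 48 Mb WT PMA held 4.76 and 13.6 kb and WT mock 0 and 0.5 kb (2.91, SE 0.58, adjusted p = 0.00692). From 35 to 36 Mb it held 7.71 and 6.62 kb against 0.5 and 0 kb (2.73, SE 0.47, adjusted p = 0.00404). From 29 to 30 Mb the values were 2.5 and 4.14 kb in WT PMA, against 0.5 and 0 kb in WT mock (1.79, SE 0.36, adjusted p = 0.00675). The window from 49 to 50 Mb held 2.03 and 1.13 kb in WT PMA and was listed at 0 in both WT mock libraries (1.34, SE 0.30, adjusted p = 0.0101). Centring, which removes the rise of the typical window, turned the split from 6 higher and 0 lower to 0 higher and 10 lower, where 8.78% of all windows were then higher and 31.1% lower. The windows starting at 29 and 49 Mb then stood at −0.14 and −0.59. Without WT PMA replicate 1 the number of calls was 12.

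The response to PMA itself was tested between genotypes as an interaction, KO minus WT. Of the 22 windows, 4 had a larger response in KO and 5 a smaller one, where 2.07% and 27.8% of all windows did. The larger responses lay from 37 to 38 Mb and from 39 to 42 Mb, and the smaller ones at 35, 44, 47, 49 and 50 Mb, by window start. The median difference of response was 0.50 in the block and −1.09 over all windows. Its sign in the block turned with a pseudocount of 100 bp, at −1.64 in the block and −1.90 over all windows, and without WT PMA replicate 1, at −0.34 and −0.98. No larger response was called in the block with that pseudocount or without KO mock replicate 1 or 2. Taken as a whole, the block responded less in KO, which was not tested. On the log2 scale KO minus WT was −1.18 for covered length and −0.68 for the share. It was −0.93 against chromosome 20 and −0.096 against the rest of chromosome 22. After centring, 11 windows had a larger response in KO and none a smaller one, where 26.6% and 2.63% of all windows did. The number of calls was between 1 and 6 when any 1 of the 8 libraries was left out. The comparisons of each genotype with its own mock, and of genotypes within a treatment, share libraries and are not independent of the interaction.

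At 100 kb, the differences under PMA came from many separate bins. Of 114 tested bins of the block, 61 were higher and 5 lower in knockout cells, where 15.9% of all 9552 tested bins were higher and 21.9% lower. The bin from 38000001 to 38100000 held 25.5 and 20.7 kb in KO PMA, 1.85 and 2.0 kb in KO mock, 0 kb in both WT PMA libraries, and 0.5 and 0 kb in WT mock. It differed by 4.58 between KO PMA and WT PMA (SE 0.25, adjusted p = 0.000681). The bin from 41900001 to 42000000 held 23.7 and 19.0 kb in KO PMA and 2.77 and 1.79 kb in KO mock, with 0 kb in both WT PMA and 0 and 0.5 kb in the WT mock libraries (4.48, SE 0.29, adjusted p = 0.000681). The bin from 39800001 to 39900000 held 18.2 and 16.2 kb in KO PMA and 4.97 and 1.99 kb in KO mock, against 0 and 0.5 kb in WT PMA and 0 kb in both WT mock libraries (3.89, SE 0.39, adjusted p = 0.002).

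The lower bins were small. The bin from 35600001 to 35700000 was listed at 0 in all 4 KO libraries and in WT mock, and held 3.25 and 1.81 kb in WT PMA (−1.79, SE 0.21, adjusted p = 0.00323). This bin entered the test only through the WT PMA libraries, so its p-value adds no support. Its SE is drawn in part from groups at 0, which have no spread. The bin from 47300001 to 47400000 held 0 kb in both KO PMA libraries and 1.5 and 1.18 kb in WT PMA (−1.22, SE 0.12, adjusted p = 0.00213). In this bin KO mock held 0.5 and 0.5 kb and WT mock 0 and 0 kb. Only WT PMA therefore had any spread behind its SE, which makes the p-value look firmer than so few regions allow. That from 49800001 to 49900000 held 0 kb in both KO PMA libraries and 1.53 and 0.629 kb in WT PMA (−1.02, SE 0.29, adjusted p = 0.0432). The covered lengths in these bins are small, at most 3.25 kb in WT PMA.

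In mock-treated cells 21 of the 114 bins were higher in KO and none lower, where 17.2% of all bins were higher and 3.61% lower, so at this scale the share of 21 bins was near the background. The bin from 47000001 to 47100000 held 3.45 and 5.0 kb in KO mock and 0 kb in both WT mock libraries (2.37, SE 0.41, adjusted p = 0.0145). The bin from 38600001 to 38700000 held 5.25 and 3.24 kb in KO mock and 0 kb in both WT mock libraries (2.36, SE 0.31, adjusted p = 0.00631). The bin from 39800001, described above, differed by 2.08 (SE 0.39, adjusted p = 0.0187). The 21 calls became 8 or 10 without KO mock replicate 1 or 2, 5 or 7 without WT mock replicate 1 or 2, and 2 with regions of at least 6-fold. After centring, 10 bins were higher and none lower, where 12.4% of all bins were higher and 5.94% lower. Bins higher in KO under both treatments numbered 12, 10.5% of the block's tested bins against 8.94% of all tested bins.

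PMA against mock gave 38 higher and 5 lower bins in KO, where 13.1% of all bins were higher and 5.34% lower. In WT there were 6 higher and none lower, where 32.1% were higher and 2.31% lower. The bin from 26900001 to 27000000 held 9.73 and 9.47 kb in KO PMA, 0 kb in both KO mock libraries and at most 1.0 kb elsewhere. The bin from 41800001 to 41900000 held 15.7 and 11.6 kb in KO PMA against 0.5 and 1.0 kb in KO mock (3.07, SE 0.30, adjusted p = 0.0039). Among the lower bins, that from 49900001 to 50000000 held 0 and 0.5 kb in KO PMA and 2.64 and 2.15 kb in KO mock (−1.47, SE 0.25, adjusted p = 0.0171). That from 50000001 to 50100000 held 0 kb in both KO PMA libraries and 1.41 and 1.77 kb in KO mock (−1.37, SE 0.21, adjusted p = 0.0141). Outside KO mock only WT PMA replicate 2 held any length in this bin, at 0.5 kb. The bin thus entered the test only through the KO mock libraries, where it is high, so its p-value adds no support. The 43 calls in KO became 16 or 27 without KO PMA replicate 1 or 2 and 25 or 22 without KO mock replicate 1 or 2. The 6 in WT became 3 without WT PMA replicate 2 or WT mock replicate 1, and 4 without WT mock replicate 2. Centring turned the WT split to 0 higher and 3 lower, where 13.1% of all bins were then higher and 9.85% lower. For the interaction, 23 bins were higher and 9 lower, where 3.79% and 12.7% of all bins were, and 10 to 17 were called when 1 library was left out. After centring it was 44 higher and none lower, where 8.5% of all bins were higher and 2.04% lower.

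Region width separated the groups by its upper tail, not by its median. The median was 500 bp in all 8 libraries, the smallest width that HOMER calls here, so it could not fall. Regions of at least 1000 bp numbered 114 and 66 in KO PMA, 9 and 10 in KO mock, 1 and 3 in WT PMA, and 0 in both WT mock libraries. As shares of the regions these were 17.9 and 12.4% in KO PMA and 4.86 and 5.43% in KO mock, against 1.89 and 2.97% in WT PMA. Over the whole libraries the shares were larger, at 23.8 and 21.2% in KO PMA and 12.2 and 13.1% in KO mock. They were 14.3 and 11.1% in WT PMA and 8.74 and 9.24% in WT mock, so KO PMA was highest there too. The 0 in WT mock rests on only 9 and 8 regions. The mean width was 770 and 696 bp in KO PMA, 592 and 590 bp in KO mock, 533 and 556 bp in WT PMA, and 514 and 550 bp in WT mock. KO exceeded WT by 1.22-fold in mean width (log2 0.29, exact permutation p = 0.0556), and PMA exceeded mock by 1.13-fold (log2 0.17, exact permutation p = 0.111). In the whole libraries the mean width was 995 and 913 bp in KO PMA, 704 and 721 bp in KO mock, 739 and 686 bp in WT PMA, and 684 and 699 bp in WT mock, so the block's regions were shorter than average in every library.

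**Figure D4:**
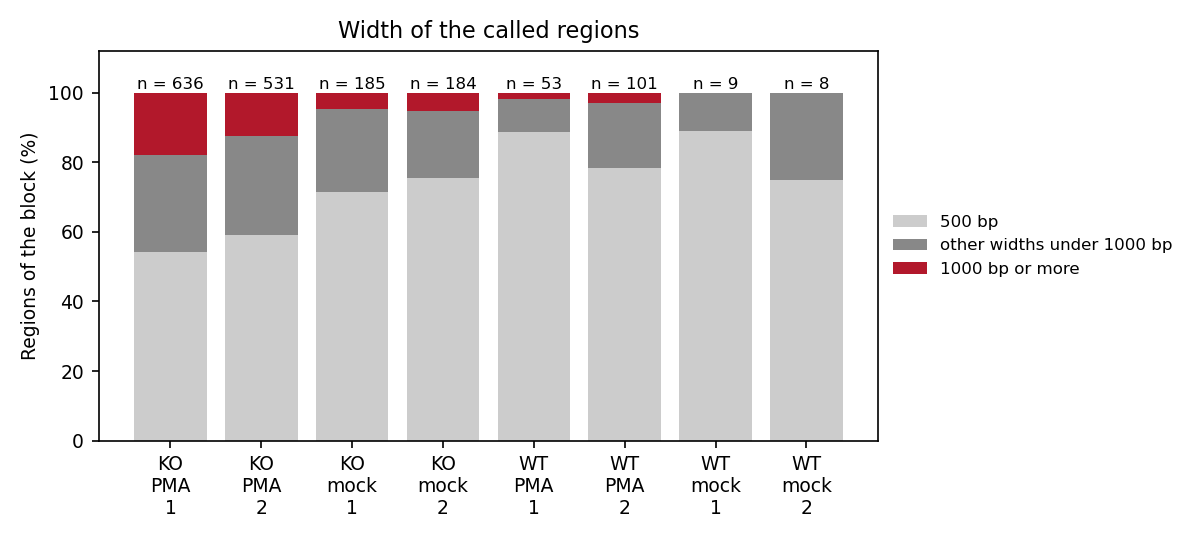
Shares (%) of the block's regions that had the smallest width of 500 bp, another width under 1000 bp, or at least 1000 bp, per library, with the number of regions above each bar. Regions of at least 1000 bp made up 17.9 and 12.4% in KO PMA and none in WT mock.

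The longest region of each group lay in a different window. In KO PMA the longest spanned 3846 bp, chr22:38697089-38700935, at 6.23-fold over input in replicate 1. It was also called in KO PMA replicate 2 and KO mock replicate 1. In KO mock the longest spanned 2090 bp, chr22:43569528-43571618, in WT PMA 1372 bp, chr22:47009197-47010569, and in WT mock 762 bp, chr22:30742998-30743760. By window and library, the mean width reached 868 bp in KO PMA replicate 1, from 38 to 39 Mb, and 759 bp in KO mock replicate 2, from 43 to 44 Mb. Regions also stood closer together in KO PMA: the median gap between neighbours was 4512 and 5620.5 bp in KO PMA, 30752.5 and 29432 bp in KO mock, 101231 and 48903.5 bp in WT PMA, and 2410511.5 and 1352177 bp in WT mock. Gaps under 10 kb made up 67.6 and 63.0% of the gaps in KO PMA and 30.4 and 29.5% in KO mock, against 17.3 and 21.0% in WT PMA and none in WT mock. Gaps in a fixed length shrink as regions grow in number, so these values are not separate from the region counts.

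The deposited fold of a region over input is the authors' value and describes regions within a list. Its median in the block was 5.09 and 5.42 in KO PMA, 5.74 and 5.78 in KO mock, 6.16 and 6.57 in WT PMA, and 5.82 and 6.76 in WT mock. Over all regions of the same libraries it was 4.07 and 4.26 in KO PMA, 4.17 and 4.37 in KO mock, 4.79 and 4.75 in WT PMA, and 4.92 and 4.61 in WT mock. The block therefore exceeded its library in all 8 cases. The γH2AX tags per kb of region did not follow: in KO PMA they were 15.4 and 16.3 per 10 M tags in the block and 18.6 and 19.2 over all regions, and in WT mock 13.7 and 14.6 against 15.6 and 16.2.

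Input tags at the called regions were low in the block. They numbered 3.08 and 3.06 per kb (per 10 M input tags) in KO PMA, 2.82 and 2.92 in KO mock, 1.97 and 2.41 in WT PMA, and 2.33 and 2.08 in WT mock. Over all regions the values were 5.08 and 5.03 in KO PMA, 5.05 and 5.19 in KO mock, 3.40 and 3.97 in WT PMA, and 3.45 and 3.76 in WT mock. On the rest of chromosome 22, with the BCR segment, they ran from 10.0 to 17.3. Among windows with at least 5 kb covered, the median input was 2.95 and 2.93 in the block against 4.0 and 3.95 over the genome in KO PMA, and 2.86 and 2.97 against 4.01 and 4.04 in KO mock. In WT PMA 1 and 2 windows of the block reached that length, at a median of 2.09 and 2.39 against 2.80 and 3.32, and in WT mock none did. All these values come from the same WT mock input and show it at called regions only. A lower input makes a given tag number a higher fold, and its part in the differences above was not tested.

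**Figure D5:**
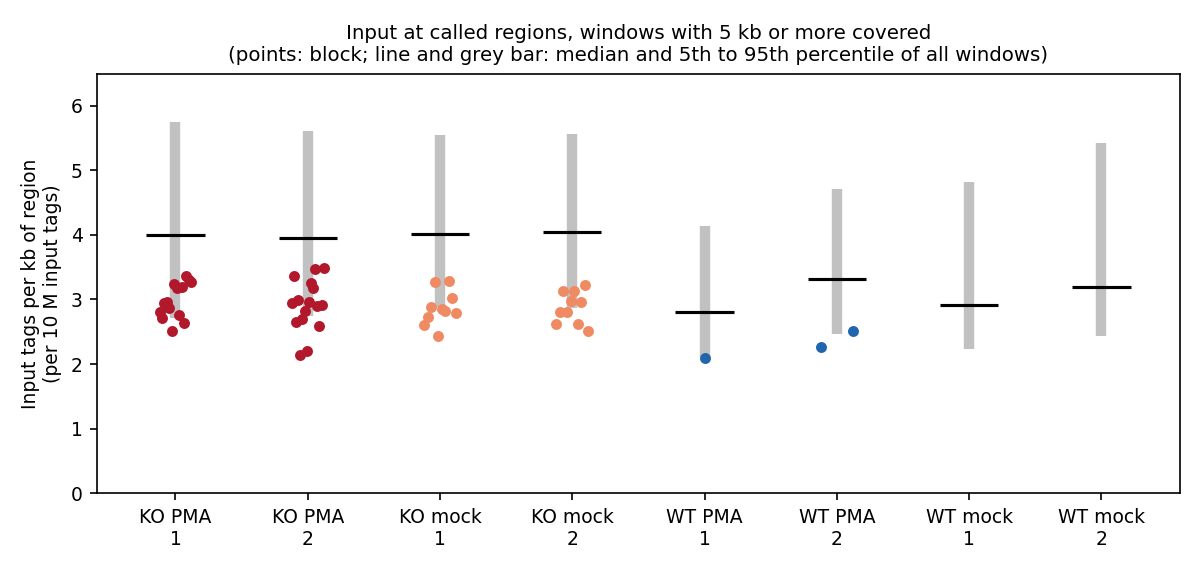
Input tags per kb of called region (per 10 M input tags) in the windows of the block with at least 5 kb covered (points), per library, with the median over all such windows of the genome as a line and their 5th to 95th percentile as a grey bar. The block's windows lie between 2.51 and 3.36 in KO PMA replicate 1, below the genome median of 4.0.

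Few regions of the block were called in both replicates. In KO PMA 201 of the 636 regions of replicate 1 overlapped one of replicate 2, 31.6% (exact Clopper-Pearson 95% interval 28.0 to 35.4%), against 38.7% over the whole libraries. In KO mock it was 24 of 185, 12.97% (8.49 to 18.7%), against 29.3%. In WT PMA 5 of 53 overlapped, 9.43% (3.13 to 20.7%), against 26.5%, and in WT mock 1 of 9, 11.1% (0.281 to 48.2%), against 17.5%. The intervals cover counting error only. They treat regions as independent, which neighbouring regions need not be, and each group has a single replicate pair. They are therefore no test of the block against the whole library, whose percentage was the higher one in every group. The Jaccard index over base pairs was 0.137 in KO PMA, 0.0446 in KO mock, 0.0186 in WT PMA and 0.0319 in WT mock.

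Reproducibility varied along the block. In KO PMA, over the 16 windows with at least 5 regions in each replicate, the Jaccard index ran from 0.0247 (40 to 41 Mb) through a median of 0.0890 to 0.231 (38 to 39 Mb). In the window from 38 Mb, 67 of 147 regions of replicate 1 overlapped replicate 2, or 45.6%. In KO mock, over 15 such windows, it ran from 0 (29 to 30 Mb) to 0.153 (50 to 50.3 Mb), where 44.4% of the regions of replicate 1 overlapped. That is 4 of 9 regions in a window of 300 kb, too few to rank it above the others. In it KO PMA held 1.63 and 0.5 kb, against 5.81 and 5.56 kb in KO mock. The 3 such windows of WT PMA, those starting at 29, 35 and 47 Mb, had indices of 0.0582, 0.0613 and 0.0195.

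Merging the regions of all libraries gave 1308 loci in the block, of 138300 in the genome. Of these, 1143 were called only in KO libraries, 126 only in WT libraries and the others in both. These are 87.4 and 9.63% of the block's loci, where 42.9 and 41.5% of all loci were called only in KO and only in WT. Most loci, 76.8%, appeared in 1 library (67.6% over the genome), 2 loci in 5 libraries and none in 6 or more. In both KO PMA libraries and neither WT PMA library there were 190 loci, 14.5% of the block's loci against 6.8% of all loci, and 5 showed the reverse, 0.382% against 4.47%. In both KO mock libraries and neither WT mock library there were 31, 2.37% against 3.74%, and 1 showed the reverse, 0.0765% against 1.03%. In both KO PMA and neither KO mock library there were 150, 11.5% against 5.2%, and 11 showed the reverse, 0.841% against 1.13%. In both WT PMA and neither WT mock library there were 5, 0.382% against 5.92%, and 1 showed the reverse, against 0.688% of all. The loci of all 4 KO and no WT library numbered 13, 0.994% of the block's loci against 1.09% of all, and they lay in 5 windows. Of the loci found in both libraries, KO PMA had 195 and KO mock 31, and they shared 15, which is 7.69% of the KO PMA loci and 48.4% of the KO mock loci. Over all loci the same overlap was 25.7% of the KO PMA loci and 57.2% of the KO mock loci. WT PMA and WT mock had 5 and 1 such loci in the block and shared none, where the overlap over all loci was 7.74% of the WT PMA loci and 35.7% of the WT mock loci.

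Among regions that both replicates called, ordered by the smaller fold over input, the leading one in KO PMA was chr22:42049707-42050347, at 15.3- and 18.6-fold, called in no other library. The next were chr22:39811532-39812032, at 14.3- and 15.1-fold, also called in KO mock replicate 1, and chr22:43573558-43574187, at 19.4- and 12.8-fold, also called in KO mock replicate 2. In KO mock the first was chr22:32019809-32020309, at 14.6- and 13.1-fold, called in all 4 KO libraries. The second, chr22:49862842-49863517 (15.7- and 13.1-fold), was called in KO mock alone. The third, chr22:38644128-38644853 (11.0- and 26.2-fold), was again called in all 4 KO libraries. None of these 6 was called in a WT library.

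In WT PMA the first was chr22:35570540-35571368, at 34.2- and 26.3-fold, followed by chr22:47162786-47163549, at 6.16- and 7.12-fold, and chr22:29210792-29211292, at 5.13- and 7.12-fold. All 3 were called in both WT PMA libraries and in no other. The only region that both WT mock libraries called was chr22:41768059-41768559, at 4.92- and 6.76-fold, and no other library called it. The coordinates are those of replicate 1 in hg19. The highest folds rest on very little input: at the first regions of KO PMA, KO mock and WT PMA the input was between 0.269 and 0.563 tags per 10 M, which is 1 input tag or none, since the files give 0.5 where no input tag was found.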

How the data were processed

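Groups and replicate numbers came from the sample titles. The submitters' processing notes name CASAVA 1.4, BWA, HOMER and the build hg19. The file headers show that the authors called each library alone against the WT mock input: 500-bp windows at least 2-fold over input, with Poisson thresholds of 0.001 for tags and 0.0001 against input, joined into regions, with at most 1 tag per bp. The deposited signal is tags per region, scaled by the authors to 10 M tags, and the deposited input signal is tags of the input there. In 5 libraries the deposited tags are unscaled counts, and in 3 they are scaled to the input. The deposited fold is the authors' ratio of tags to input. The deposited score is HOMER's own and ranked regions within a list, and the deposited p-value is HOMER's for a single region and was not used further.

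The tag threshold ran from 5.89 per 10 M tags (deepest library) to 7.69 (shallowest), so weaker windows could be called at greater depth. Covered length was summed by region midpoint in windows of 1 Mb, the last of 300 kb, and clipped in bins of 100 kb. Windows or bins covered in at least 2 libraries, on chromosomes 1 to 22 and X, were tested with limma 3.58.1 (R 4.3.3), with a mean-variance trend, in 1 fit of 4 groups on log2(covered bp + 1000), which understates changes of little-covered windows. Neighbouring windows are not independent. Windows passed at 0.05 after Benjamini-Hochberg adjustment over all windows tested. Single values were compared by exact permutation tests, two-sided, on log2 values, within the other factor where pooled. Other steps used Python 3.11.15, numpy 2.4.6, pandas 2.3.3, scipy 1.17.1 and matplotlib 3.10.9. The limma step was also run on simulated 1-Mb windows with normal noise on the log2 scale, where only better-covered windows were changed. Detection of changes in little-covered windows or in bins was not tried in this way. No replicate pair shared an identical region.

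Windows named in full were up to 4 per comparison and direction with the largest change past the threshold, bins up to 3, at most 1 per Mb, and regions the 3 with the highest lower fold per group and the longest. The members, lists and rules were chosen with earlier results of these data known. Mean width, the ratios to chromosome 20 and to the rest of chromosome 22, and the windows of at least 5000 bp were added after seeing the data. A planned test of gene bodies was not run, since no hg19 annotation was used here, and no sequence is shown for the same reason. The input library entered only through the deposited input tags.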

Additional observations from a re-analysis of the deposited data

Results flagged for a closer look

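The response to PMA differed between KO and WT cells, in the interaction test of limma, at the following windows and bins of chromosome 22. Differences are KO response minus WT response on the log2(covered bp + 1000) scale. The test over the genome gave 2.07% of windows higher and 27.8% lower, and 3.79% of bins higher and 12.7% lower. The covered length of the whole block had a smaller response in KO, at −1.18 on the log2 scale, which was not tested.

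The response was larger in KO in the windows from 41 to 42 Mb (3.13, adjusted p = 0.0303), 39 to 40 Mb (2.26, adjusted p = 0.0195), 40 to 41 Mb (2.10, adjusted p = 0.0227) and 37 to 38 Mb (1.36, adjusted p = 0.025). It was larger in the bins from 38000001 (3.33, adjusted p = 0.00443), 41900001 (3.07, adjusted p = 0.00932) and 39600001 (2.94, adjusted p = 0.00568). In the bins from 38000001 and 41900001 both WT PMA libraries held 0 kb, so the SE there is drawn in part from a group without spread. In the bin from 39600001 to 39700000 the KO PMA libraries held 8.26 and 5.32 kb, and the other 6 libraries were listed at 0. This bin entered the test only through the KO PMA libraries, where it is high, so its p-value adds no support. None of these windows was called with a pseudocount of 100 bp or without KO mock replicate 1 or 2.

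The response was smaller in KO in the windows from 49 to 50 Mb (−3.21, adjusted p = 0.00976), 50 to 50.3 Mb (−3.16, adjusted p = 0.0334), 47 to 48 Mb (−3.09, adjusted p = 0.0383) and 35 to 36 Mb (−2.48, adjusted p = 0.0383). It was smaller in the bins from 49800001 (−2.05, adjusted p = 0.0323), 47300001 (−1.81, adjusted p = 0.00308) and 35600001 (−1.79, adjusted p = 0.0198). After centring each library on its median window, the smaller responses of these 4 windows were no longer called, at −1.47, −1.42, −1.35 and −0.74. The covered lengths behind these bins are at most 3.25 kb in any library. In the bin from 47300001 only WT PMA had any spread between replicates, so its small p-value rests on little. The bin from 35600001 entered the test only through the WT PMA libraries, where it is high, so its p-value adds no support.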

How the results depend on the processing

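The whole-block difference between KO and WT in covered length kept its sign in every alternative run, at log2 5.29 with 1 tag threshold for all libraries and 3.54 when regions under 6-fold over input were left out. The differences after PMA were less stable. With the same number of regions per library, WT PMA against WT mock stood at −0.69 for covered length, −0.99 for the share, −1.76 against the rest of chromosome 22 and −0.10 against chromosome 20, and the pooled PMA difference at −0.36 for the share and −0.40 against the rest of chromosome 22. Counted over the whole of chromosome 22, the PMA difference in share was −0.63 in KO, −0.31 in WT and −0.47 pooled. The causes were not tested. The mean width of WT PMA against WT mock ran from −0.015 to 0.084 when 1 library was left out.

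The median width, equal in all libraries at first, differed on the log2 scale with 1 tag threshold by 0.38 (KO PMA against KO mock), 0.29 (KO PMA against WT PMA), −0.18 (KO mock against WT mock), −0.094 (WT PMA against WT mock), 0.057 (KO against WT) and 0.14 (PMA against mock). With the same number of regions these were 0.27, 0.43, 0.16, 0, 0.30 and 0.13. With regions of at least 1000 bp the first 2 were 0.070 and 0.32, and no other comparison with WT mock had a value, since it held no such region. The cause was not tested. At a reciprocal overlap of 50%, 13.1% of KO PMA and 7.57% of KO mock regions of replicate 1 met one of replicate 2, since the criterion is stricter.

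Counts of called windows moved with the processing, and the cause was not tested. For KO PMA against KO mock the 9 calls became 2 at 6-fold, 5 with the same number of regions, 15 in windows of 500 kb, and 3 and 14 with pseudocounts of 100 and 10000 bp. For KO PMA against WT PMA the 16 became 7 with the same number. For KO mock against WT mock the 18 became 6 at 6-fold, 7 with the same number and 1 with regions of at least 1000 bp. For WT PMA against WT mock the 6, all higher, became 2 higher with 1 tag threshold. They became 10 higher with summed tags, a pseudocount of 100 bp or coverage in at least 4 libraries. With centring the direction turned, to 10 lower and 0 higher. In limma none passed with the same number of regions (2 at an unadjusted p under 0.05) or with regions of at least 1000 bp (0 at an unadjusted p under 0.05). The 9 interaction calls became 3 at 6-fold, 2 larger responses with the same number, and 2 smaller ones with a pseudocount of 100 bp. Leaving out 1 library gave 1 to 13 calls for KO PMA against KO mock, 13 to 18 for KO PMA against WT PMA, 9 to 21 for KO mock against WT mock, 5 to 12 for WT PMA against WT mock and 1 to 6 for the interaction. Single windows changed sign from 29 Mb (−0.14) and 49 Mb (−0.59) in WT PMA against WT mock and from 49 Mb (0.20) in KO PMA against WT PMA, all by centring, and from 35 Mb in the interaction with the same number (0.66).

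Called bins moved likewise. For KO PMA against KO mock the 43 became 23 at 6-fold, 16 with the same number, 20 at 1000 bp, 23 with a pseudocount of 100 bp, 27 with coverage in at least 4 libraries and 24 with these 2 groups alone. For KO PMA against WT PMA the 66 became 42, 19 and 24 in the first 3 of these. For KO mock against WT mock the 21 became 10 at 4-fold, 2 at 6-fold, 10 with the same number, 1 at 1000 bp, 8 with a pseudocount of 10000 bp and 10 with centring. For WT PMA against WT mock the 6, all higher, became 2 higher with 1 tag threshold and 10 higher with a pseudocount of 100 bp. With the 2 groups alone 12 were higher and 1 lower. The direction turned with the same number (1 lower) and with centring (3 lower), and none passed limma at 1000 bp (0 at an unadjusted p under 0.05). The 32 interaction calls became 15 with the same number, 19 at 1000 bp, 20 with a pseudocount of 100 bp and 14 with coverage in at least 4 libraries. Leaving out 1 library gave 16 to 51, 44 to 65, 5 to 28, 3 to 8 and 10 to 17 calls in the order above.

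Replicate numbers were not shown to pair the libraries: with 2 per group, deviations of same-numbered libraries correlated at −0.08 to 0.26. With the replicate number as a block, calls were 7 windows and 39 bins for KO PMA against KO mock, 15 and 64 for KO PMA against WT PMA, 17 and 17 for KO mock against WT mock, 6 and 5 for WT PMA against WT mock, and 8 and 22 for the interaction. Depth limits the values: covered length comes in steps of about 500 bp, and a little-covered window rests on 1 or 2 regions.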
